A study of Mus musculus with 12 samples.

Results

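Adar, Adarb1 and Adarb2, the 3 mouse genes of the adenosine deaminase family that acts on double-stranded RNA, were followed by name through every gene table of the series, where they are 3 of 23955 listed genes. To these were added the 61 listed editing sites that lie inside the Adarb1 locus on mm9 chromosome 10, the first at position 76764526 and the last at 76872555, of 46689 sites listed in all. The study measured RNA in primary cortical neuron cultures from C57BL/6J mouse embryos, taken at E16.5 and infected on the day after seeding with lentivirus that carried a short hairpin RNA (shRNA) in the pGreenPuro backbone. It asked which editing sites depend on each enzyme and which on Zfr, an RNA-binding zinc finger protein. The groups were shAdar1 (hairpin against Adar), shAdar2 (hairpin against Adarb1), shZfr (hairpin against Zfr) and the control hairpins shControl2 and shControl1, with 2 biological replicates each. shControl1 is the study's baseline for shAdar1 and shAdar2, and shControl2 is its baseline for shZfr. All 5 groups carried a virus, all were harvested 7 days after dissection, and each target was lowered by 1 hairpin. A hairpin lowers its target without deleting it, so every group retained some transcript of every enzyme. The cultures are called primary neurons in the labels, and they also held other brain cells, whose marker genes are given below.

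ADAR enzymes bind double-stranded RNA and convert adenosine to inosine, which the ribosome and the sequencer read as guanosine. Adar encodes ADAR1, which edits mainly long duplexes in noncoding sequence and keeps self RNA from alarming the sensors of the innate immune system. Adarb1 encodes ADAR2, the main enzyme at recoding sites of neuronal ion channels and receptors, and Adarb2 encodes ADAR3, a brain protein with no known deaminase activity that can bind the same RNAs. ADAR2 edits its own precursor RNA. In rat, an edit in the intron just before a coding exon turns an AA dinucleotide into AI, which the spliceosome reads as a 3′ splice site. Use of that site adds a short stretch to the exon, shifts the reading frame and lowers the amount of full-length enzyme.

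Of the 61 sites, 57 could be placed on transcripts of Adarb1 annotated in GENCODE M21 from the spacing of their positions alone, since every site has to fall on an A of the minus strand. A set of 24 sites matched 3 of the gene's 13 transcripts, those that start the exon 47 bases early. Those 47 bases, the stretch that self-editing adds, hold 9 listed sites. The intron base just before them is 1 further listed site, which is not on these transcripts and was placed by its distance from the others. The insert is shown first because base +24 of it was the most edited site of the exon, followed by the intron stretch that carried most of the other edited reads. Capitals mark sites with at least 5 edited reads over all libraries.
Adarb1 insert of 47 bases: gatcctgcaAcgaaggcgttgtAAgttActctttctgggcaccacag
Adarb1 intron stretch: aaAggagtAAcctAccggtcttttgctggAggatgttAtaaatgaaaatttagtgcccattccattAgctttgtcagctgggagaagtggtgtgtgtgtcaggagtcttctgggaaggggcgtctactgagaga
Both are written 5′ to 3′ in the sense of the transcript. In the insert the 4 capitals are bases +10, +23, +24 and +28, counted from its first base. These are the listed positions 76785366, 76785353, 76785352 and 76785348 of mm9 chromosome 10. The base before the insert, −1, is position 76785376. In rat, the self-editing sites known from the literature include −1, +10, +23 and +24, the same distances. The intron stretch spans positions 76786842 down to 76786709 with 20 listed sites and lies 1334 to 1467 bases upstream of the insert. It was found in 1 annotated transcript, which retains the intron, and its 7 capitals are positions 76786840, 76786834, 76786833, 76786829, 76786813, 76786805 and 76786776.

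The printed stretches can pair with each other. RNAduplex placed bases 1 to 35 of the intron stretch against bases 1 to 35 of the insert, with 27 base pairs and a predicted energy of −29.2 kcal/mol. In that prediction bases +23 and +28 of the insert and positions 76786840, 76786834, 76786833, 76786829 and 76786813 of the intron stood opposite U. Bases +10 and +24 were unpaired, and positions 76786805 and 76786776 lay outside the duplex. The base 5′ of the edited A was T at 6 of the 11 edited sites of both stretches, A at 4 and G at 1. Of the 18 listed sites there with fewer than 5 edited reads, 7 had A, 7 had G, 2 had C and 2 had T before them. The annotated transcript that contains the insert, Adarb1-203, reads 82 codons from the start codon to a stop and is annotated as a target of nonsense-mediated decay. Adarb1-201, without the insert, reads 701 codons. In the GENCODE M21 annotation, on GRCm38, Adar lies at chr3:89715022-89753446 on the plus strand, Adarb1 at chr10:77290726-77418270 on the minus strand and Adarb2 at chr13:8202866-8768747 on the plus strand. All 3 are protein coding.

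The 12 libraries held 1.58e7 to 2.97e7 expected counts, and replicate 1 of shAdar2 was sequenced as 3 technical libraries which were added up before any test, so that there were 10 samples. Technical libraries 1 and 3 of that replicate were closely alike, with 0.903% of 11182 genes differing by over 2-fold. Library 2 stood apart from them, with 2.55% of genes differing from library 1 and 2.43% from library 3. Results for the 3 genes and for editing that rest on it are therefore given with and without it. Tests of gene lists are given only with it included. Reads at editing sites were scarce in shAdar2. Its 4 libraries held 4.15 to 10.95 site reads per 1000 expected counts, against 19.04 to 31.95 in the other 8, and the Adarb1 locus had 95 to 571 reads in a shAdar2 library, against 1302 to 2736 in the others. Marker sums of samples are given in CPM as counts relative to the sample's total, without TMM scaling. They are therefore not on the scale of the TMM-normalised gene levels given below. Summed over the neuron markers Rbfox3, Map2, Tubb3, Snap25 and Syt1, samples reached 3801 to 4242 CPM in shAdar1 and 2540 to 2556 CPM in shAdar2. The sums were 5541 to 5656 CPM in shZfr, 4758 to 5012 CPM in shControl2 and 3597 to 4040 CPM in shControl1. The 6 astrocyte markers summed to 1057 to 1563 CPM in shAdar1, 615 to 926 CPM in shAdar2, 658 to 690 CPM in shZfr, 1842 to 2097 CPM in shControl2 and 645 to 967 CPM in shControl1. The 6 microglia markers summed to at most 4.89 CPM in any sample. In bulk RNA, fewer cells of a type and less RNA per cell cannot be told apart.

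Adar stood lowest in the cells with the hairpin against it, and its level in shAdar2 lay at the top of the series. Normalised Adar counts (TMM-normalised counts relative to library size) were 55.0 and 51.5 CPM in the shAdar1 samples. They were 152.7 and 191.8 CPM in shControl1 and 138.7 and 118.1 CPM in shControl2. The shAdar1 samples did not overlap with either control group. Of the 3 genes, Adar alone passed the test in shAdar1 against shControl1, a comparison in which 16.2% of the 14785 genes tested passed in either direction. It also alone passed against shControl2, with 33.2% of genes called. The log2 fold change was −1.69 ± 0.13 (SE) against shControl1 (edgeR adjusted p = 0.00034) and −1.27 ± 0.13 against shControl2 (edgeR adjusted p = 0.00032), so the remaining level was 30.9% of the first control and 41.5% of the other. When both controls were pooled into 1 group, the estimate was −1.50 with an edgeR adjusted p of 0.0627. For shAdar1, 5 genes in all were called with the controls pooled, against 2400 in the comparison with shControl1. Within this comparison the loss of the call was thus not particular to Adar. Pooling did not end calls everywhere: for shAdar2 it left 4811 genes called.

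Whether Adar differed in shAdar2 depended on the control hairpin. The shAdar2 samples had 207.2 and 187.6 CPM of Adar, the 3 technical libraries of replicate 1 lying close together at 203.7, 218.8 and 218.1 CPM. One shControl1 sample, at 191.8 CPM, fell between the shAdar2 values, and the test against shControl1 did not pass (log2 fold change 0.20 ± 0.13, edgeR adjusted p = 0.233). Against shControl2 the groups did not overlap and Adar rose (0.62 ± 0.13, edgeR adjusted p = 0.00248), in a comparison that called 59.5% of genes. That call ended when the controls were pooled (0.39).

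In shZfr cells Adar was 139.7 and 132.8 CPM, against 138.7 and 118.1 CPM in shControl2, overlapping values whose test did not pass (0.09 ± 0.13, edgeR adjusted p = 0.656). Against shControl1 the difference was −0.34 ± 0.13 (edgeR adjusted p = 0.0556). The control hairpins differed from each other: the log2 fold change of Adar in shControl2 over shControl1 was −0.42 ± 0.13 (edgeR adjusted p = 0.0246), without overlap, and the comparison of the controls called 43.1% of all genes. Adar and Adarb1 were both among these. Leaving out replicate 2 of shControl1 or of shControl2 ended that Adar call (−0.25 and −0.30). Ordered by mean CPM, Adar ran from shAdar2 through shControl1, shZfr and shControl2 to shAdar1. Among neighbours in that order, the step between shControl2 and shAdar1 was the one that passed.

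**Figure D1:**
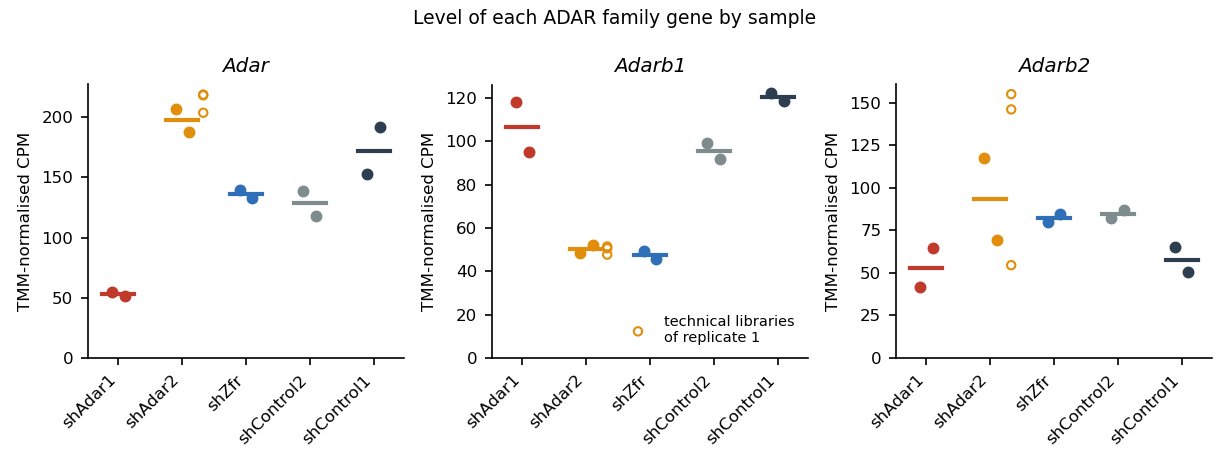
Normalised levels (TMM-normalised CPM, linear axes from 0) of Adar, Adarb1 and Adarb2 in each of the 10 samples, by group, with a bar for the group mean and open points for the technical libraries of shAdar2 replicate 1. Adar is at 51.5 to 55.0 CPM in shAdar1 and at 118.1 CPM or more elsewhere, and Adarb1 is at 45.5 to 52.0 CPM in shAdar2 and shZfr.

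Adarb1, the gene for ADAR2, was low in 2 groups, shAdar2 and shZfr, and at nearly the same level in both. It had 48.4 and 52.0 CPM in shAdar2 and 49.2 and 45.5 CPM in shZfr, against 99.4 and 92.0 CPM in shControl2 and 122.4 and 118.5 CPM in shControl1. All 4 low samples lay below every other sample of the series. The technical libraries of shAdar2 replicate 1 agreed, with 47.7, 51.5 and 50.6 CPM. Between shAdar2 and shZfr the samples overlapped, and the difference of 0.08 ± 0.12 did not pass (edgeR adjusted p = 0.564) in a comparison that called 60.5% of all genes.

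The falls of Adarb1 passed against both controls. In shAdar2 against shControl1, where Adarb1 and Adarb2 were called and 46.4% of genes were called, the log2 fold change was −1.26 ± 0.12 (edgeR adjusted p = 7.1e-05), and against shControl2 it was −0.93 ± 0.12 (edgeR adjusted p = 0.000163). The remaining levels were 41.7% and 52.5%. In shZfr against shControl2 Adarb1 was the only one of the 3 genes called, among 30.7% of all genes, and fell by 1.02 ± 0.12 on the log2 scale to 49.5% of the control (edgeR adjusted p = 0.00038). Against shControl1, where again Adarb1 alone was called and 46.2% of genes were, the change was −1.35 ± 0.12 (edgeR adjusted p = 4.0e-05). The neuron marker sum, without TMM scaling, was lower in shAdar2 and higher in shZfr than in any control sample. The astrocyte sum, on the same scale, was lower in both groups than in shControl2. It overlapped with shControl1, in which Adarb1 was highest. The part of cell types in the Adarb1 result was not tested.

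In shAdar1, Adarb1 was 118.2 and 94.9 CPM. These values lay below both shControl1 samples, the first by little, and 1 of them lay between the shControl2 samples, and neither test passed (−0.18 ± 0.12 with an edgeR adjusted p of 0.344, and 0.16 ± 0.12 with an edgeR adjusted p of 0.350). The log2 fold change of Adarb1 in shControl2 over shControl1 was −0.33 ± 0.12 (edgeR adjusted p = 0.046), a call that ended under DESeq2 or its size factors (−0.29 in each) and with any 1 replicate left out. By mean level the order was shControl1, shAdar1, shControl2, shAdar2, shZfr, and of the neighbouring pairs the fall between shControl2 and shAdar2 was the one that passed.

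**Figure D2:**
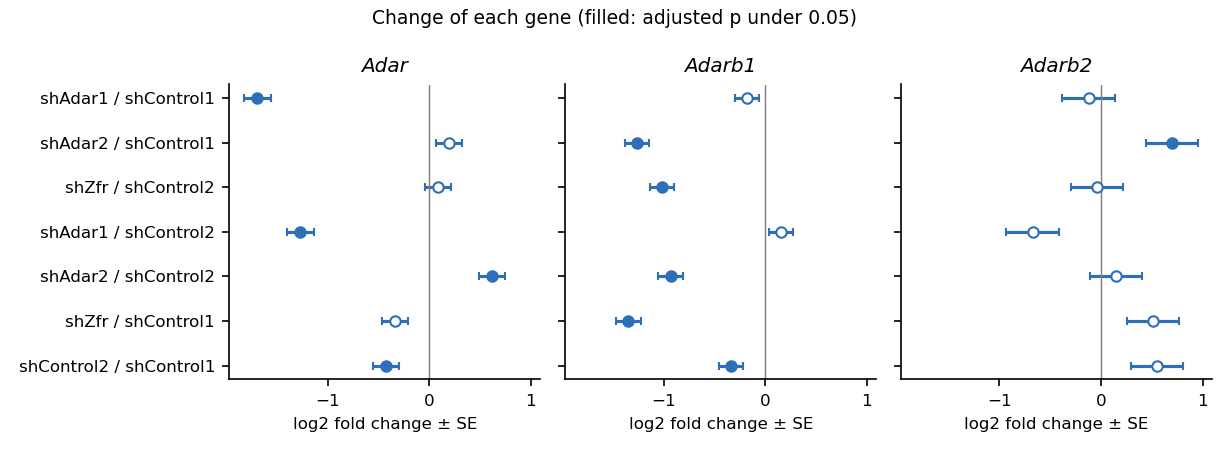
Log2 fold changes with their standard errors for Adar, Adarb1 and Adarb2 in 7 comparisons, from the edgeR fit over all 10 samples, filled where the adjusted p was under 0.05. Adarb1 lies between −0.93 and −1.35 in shAdar2 and shZfr against either control, and Adarb2 has 1 filled point, 0.70 in shAdar2 against shControl1.

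Adarb2, the gene for the family member without known enzyme activity, was measured with a wider error than the other 2 genes. It had 41.5 and 64.6 CPM in shAdar1, 117.3 and 69.2 CPM in shAdar2, 79.9 and 84.5 CPM in shZfr, 82.1 and 87.2 CPM in shControl2 and 65.1 and 50.5 CPM in shControl1. The shAdar2 samples lay above both shControl1 samples and on either side of the shControl2 samples. The test of shAdar2 against shControl1 passed narrowly (log2 fold change 0.70 ± 0.26, edgeR adjusted p = 0.0492) and that against shControl2 did not (0.15 ± 0.26, edgeR adjusted p = 0.646). The first call was lost under the replicate block (edgeR adjusted p = 0.058), DESeq2's size factors (edgeR adjusted p = 0.0539) and a fit of the compared groups alone (edgeR adjusted p = 0.0972). It was also lost in 3 of the 4 fits with 1 replicate left out: without shAdar2 replicate 1 (0.25), shControl1 replicate 1 (0.88) or shControl1 replicate 2 (0.52).

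The high value of shAdar2 came from part of its libraries. Technical libraries 1, 2 and 3 of replicate 1 had 155.0, 54.5 and 146.1 CPM of Adarb2. The labels give all 3 as RNA of the same neurons, which could not be checked for library 2, so the summed values of shAdar2 replicate 1 hold as far as that label does. Libraries 1 and 3 were above every other library of the series, and library 2 was within the range of shControl1 and shAdar1. Without library 2 the log2 fold change against shControl1 was 0.92 (edgeR adjusted p = 0.0395), and with library 2 alone it was 0.08 (edgeR adjusted p = 0.792). Adarb1 and Adar barely moved when library 2 was left out, at −1.27 and 0.20.

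The inhibitory neuron markers Gad1, Gad2, Slc32a1, Dlx1 and Sst moved with Adarb2 across those libraries. Their sum was 1153, 535 and 1104 CPM in technical libraries 1, 2 and 3, and 567 CPM in shAdar2 replicate 2, where Adarb2 was 70.0 CPM on the same scaling of single libraries. In the sums of samples, which carry no TMM scaling, the markers reached 649 to 1043 CPM in shAdar2, against 291 to 374 CPM in shControl1. Of the 5 markers, 3 rose in shAdar2 against shControl1 and 1, Dlx1, fell, where 23.2% of all genes rose and 23.2% fell. Against shControl2 2 rose and 2 fell, where 32.2% of all genes rose and 27.3% fell. In shZfr the relation was different. On the scaling of single libraries its marker sums were 294 and 299 CPM, between the 359 and 284 CPM of shControl1. Adarb2 was 81.9 and 87.0 CPM in shZfr on that scaling, against 66.3 and 51.5 CPM in shControl1. The part of inhibitory neurons in the Adarb2 result was not tested.

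**Figure D3:**
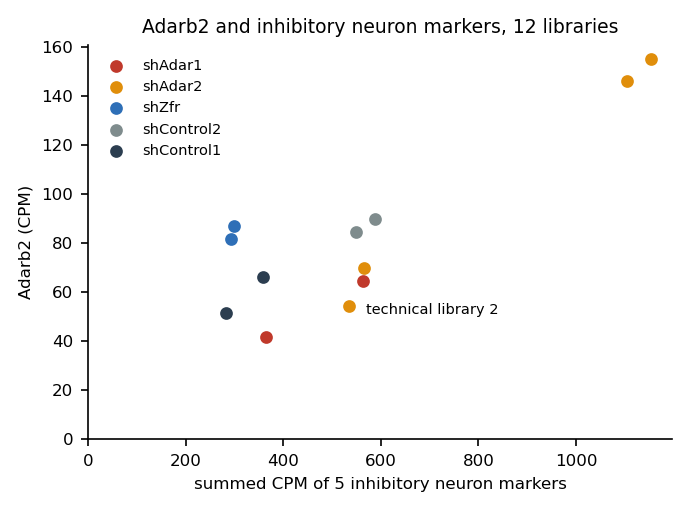
Adarb2 level against the summed level of 5 inhibitory neuron markers (both CPM, libraries normalised together) in each of the 12 libraries, coloured by group. Technical libraries 1 and 3 of shAdar2 replicate 1 stand at the upper right with 1153 and 1104 CPM of markers, and library 2, labelled as the same neurons, lies at 535 CPM among the other libraries.

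In no other comparison with or between the controls did Adarb2 pass. Between hairpins it passed in shAdar1 against shAdar2 (−0.82 ± 0.26, edgeR adjusted p = 0.0318), without overlap and in a comparison that called 38% of all genes. Without technical library 2 that difference was −1.04 (edgeR adjusted p = 0.0291), and with library 2 alone it was −0.20 and not called. Adarb2 was 0.55 ± 0.26 higher on the log2 scale in shControl2 than in shControl1 (edgeR adjusted p = 0.110), −0.04 ± 0.26 in shZfr against shControl2 (edgeR adjusted p = 0.922), 0.51 ± 0.26 in shZfr against shControl1 (edgeR adjusted p = 0.133), −0.12 ± 0.26 in shAdar1 against shControl1 (edgeR adjusted p = 0.786) and −0.67 ± 0.26 in shAdar1 against shControl2 (edgeR adjusted p = 0.0727). The shAdar1 samples did not overlap with shControl2, and that test passed under DESeq2 (−0.74), without a filter on low counts (−0.66), in a fit of the compared groups alone (−0.70) and without shAdar1 replicate 2 (−1.03). By mean level the groups ran shAdar2, shControl2, shZfr, shControl1, shAdar1, and no step between neighbours passed.

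The balance between the active enzymes was set out per length, in TPM, which scales each gene by its length. Adar averaged 23.7 ± 0.750 TPM in shAdar1, 98.4 ± 3.94 TPM in shAdar2, 69.6 ± 2.55 TPM in shZfr, 68.4 ± 7.99 TPM in shControl2 and 83.6 ± 16.0 TPM in shControl1 (SD, n = 2 each). Adarb1 averaged 42.4 ± 5.95 TPM in shAdar1, 22.5 ± 1.82 TPM in shAdar2, 21.6 ± 1.24 TPM in shZfr, 45.6 ± 2.62 TPM in shControl2 and 52.1 ± 0.403 TPM in shControl1. Adarb2 averaged 27.4 ± 8.83 TPM in shAdar1, 53.3 ± 17.7 TPM in shAdar2, 48.3 ± 1.89 TPM in shZfr, 52.1 ± 2.18 TPM in shControl2 and 32.6 ± 4.87 TPM in shControl1. In both control groups Adar thus had the higher level per length of the active pair, and in shAdar1 Adarb1 had.

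As a share of the TPM of Adar plus Adarb1, Adarb1 made up 65.8% and 62.2% in shAdar1, 17.3% and 19.9% in shAdar2 and 24.0% and 23.4% in shZfr, against 39.0% and 41.1% in shControl2 and 41.7% and 35.6% in shControl1. The share in shAdar1 lay above all control samples and those in shAdar2 and shZfr below all of them. The differences from the baseline were 25.3 percentage points in shAdar1, −20.0 in shAdar2 and −16.3 in shZfr, each with an exact two-sided permutation p of 0.33, the smallest that 2 samples against 2 can give. The shares of the control hairpins overlapped, although both genes were called lower in shControl2 than in shControl1.

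At the Adarb1 locus, editing was found in the self-editing exon and its partner intron and hardly anywhere else. Over all libraries, 472 of 17432 reads at the 61 sites were edited. The 9 sites of the insert held 175 edited of 1896 reads (9.23%), base −1 held 10 of 122 (8.197%) and the 20 intron sites held 276 of 3333 (8.28%). In the exon with the start codon 4 of 7157 reads were edited at 13 sites (0.0559%), and in the exon downstream of the insert 5 of 4818 were at 15 sites (0.104%). The 6 sites with the most reads all lay in the start-codon exon, with at most 1 edited read each. The 3 sites that could not be placed had 2 edited of 106 reads. Reads that span neighbouring sites count at each of them, so sites of a stretch share reads.

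**Figure D4:**
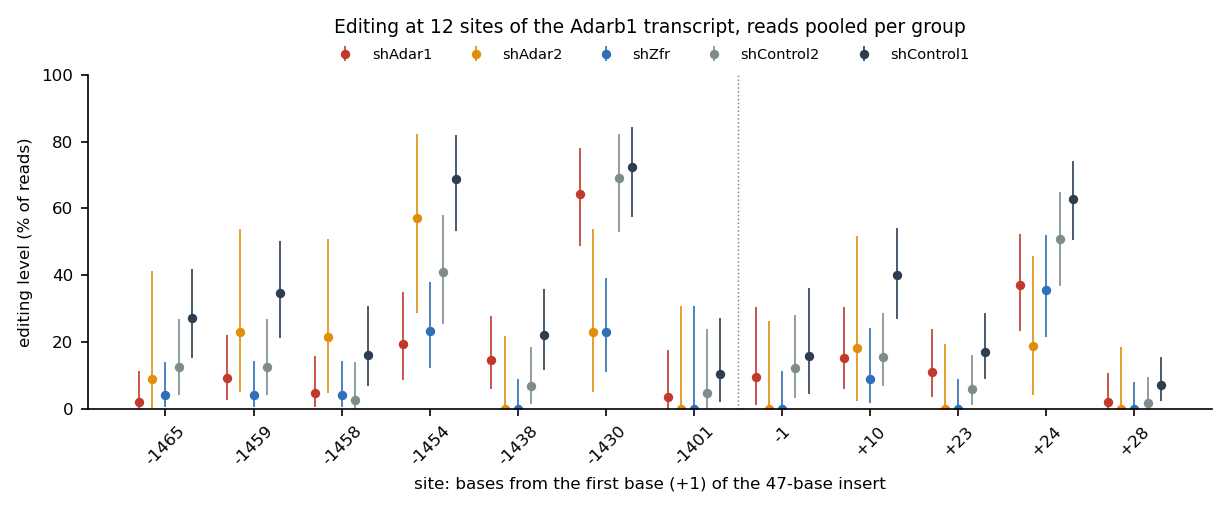
Editing level (percent of reads, replicates pooled) with its exact 95% interval at the 12 sites with at least 5 edited reads, placed by their distance from the first base of the insert and coloured by group. The highest levels are those of base +24 and of the intron positions 76786829 and 76786805, which lie 1454 and 1430 bases upstream, and the long bars of shAdar2 come from its few reads.

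Base +24, the site of the insert with the most edited reads, was edited in 106 of 227 reads. By sample it was edited in 11 of 25 reads (44.0%) and 6 of 21 (28.6%) in shAdar1, 3 of 14 (21.4%) and 0 of 2 in shAdar2, 7 of 23 (30.4%) and 8 of 19 (42.1%) in shZfr, 15 of 24 (62.5%) and 12 of 29 (41.4%) in shControl2, and 17 of 32 (53.1%) and 27 of 38 (71.1%) in shControl1. Neither shAdar1 sample overlapped with shControl1. The difference of −25.8 percentage points, a log2 odds ratio of −1.51 ± 0.62, had an unadjusted edgeR p of 0.0239 and an edgeR adjusted p of 0.0634, and was not called. In shAdar2 the 2 replicates pooled gave 18.8% with an exact 95% interval of 4.05% to 45.6%, against 62.9% with an interval of 50.5% to 74.1% in shControl1. Without technical library 2 the shAdar2 level was 1 of 12 reads, 8.33% with an interval of 0.211% to 38.5%. Neither shAdar2 interval overlaps with that of shControl1, but they cover counting error only and 14 of the 16 shAdar2 reads came from 1 replicate.

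With at least 20 reads required in each sample, no site of the locus was called in any comparison. In shAdar1 against shControl1 4 locus sites could be tested, bases +28, +24 and +23 and position 76786813, and 0 were called by edgeR, while 33.4% of the 890 sites tested across the genome were called lower. Base +24 was the 1 of these with an unadjusted p under 0.05, and Fisher's exact test on pooled reads called 1 site. In shAdar1 against shControl2 3 locus sites could be tested and 0 were called, with 0 by Fisher's exact test too and 15.3% of sites lower across the genome. In shControl2 against shControl1 5 could be tested and 0 were called by either test, with 9.61% of sites called lower, and base +10 had an unadjusted edgeR p of 0.0171 (edgeR adjusted p = 0.0977). No locus site met this depth together with the minimum of 5 edited reads in shZfr against either control or in shAdar2 against either control.

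With at least 10 reads in each sample, more of the locus could be tested. In shAdar1 against shControl1 3 of 10 sites were lower, where 30.2% of sites across the genome were. A minimum of 5 reads gave the same number, 3, with 23.9% of sites lower across the genome. Position 76786829 was edited in 5 of 24 reads (20.8%) and 3 of 17 (17.6%) in shAdar1, against 21 of 30 (70.0%) and 10 of 15 (66.7%) in shControl1. That is a difference of −49.1 percentage points with no overlap (edgeR adjusted p = 0.00063). The other sites called were 76786834 (−25.9 points, edgeR adjusted p = 0.0348) and 76786840 (−24.1 points, edgeR adjusted p = 0.0072), all 3 within the intron part of the predicted duplex. Against shControl2, which had 28.6% and 55.6% at position 76786829, 0 of 9 sites passed by edgeR or by Fisher's exact test, and none had an unadjusted p under 0.05. At this depth 11.3% of sites across the genome were called lower in that comparison.

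Position 76786805 moved in another set of groups. It was edited in 18 of 24 reads (75.0%) and 11 of 21 (52.4%) in shAdar1, 3 of 13 (23.1%) in shAdar2 replicate 1 with no reads in replicate 2, 5 of 20 (25%) and 4 of 19 (21.1%) in shZfr, 16 of 23 (69.6%) and 13 of 19 (68.4%) in shControl2, and 22 of 29 (75.9%) and 12 of 18 (66.7%) in shControl1. The shZfr samples lay below every control sample, and shAdar1 overlapped with shControl1. In shZfr against shControl2 it was the 1 site called of 6 tested, with a difference of −46.0 percentage points (edgeR adjusted p = 0.0069), where 6.77% of sites across the genome were called lower, and 1 site was called at 5 reads too, with 2.2% lower across the genome. In shAdar1 against shControl1 it had a difference of −7.57 points that did not pass. Pooled shAdar2 reads gave 23.1% with an exact 95% interval of 5.04% to 53.8%, against 72.3% with an interval of 57.4% to 84.4% in shControl1. Without technical library 2 the shAdar2 level was 3 of 7 reads, 42.9% with an interval of 9.90% to 81.6%, which overlaps with that of shControl1.

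At position 76786829 shAdar2 replicate 1 had 8 edited of 14 reads, 57.1% with an exact 95% interval of 28.9% to 82.3%, against 68.9% with an interval of 53.4% to 81.8% in shControl1. Without technical library 2 it had 5 of 8 reads, 62.5%. The shZfr samples had 18.2% and 28.0% there, against 28.6% and 55.6% in shControl2. No locus site could be tested in shAdar2 at a minimum of 20, 10 or 5 reads in each replicate, because replicate 2 had at most 2 reads at any edited site. Whether shAdar2 differs from shAdar1 at these positions was not tested.

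Against shControl1, shZfr was lower at 7 of 10 sites tested at this depth, where 32.4% of sites were lower across the genome, and the number was 7 at a minimum of 5 reads as well, with 21% lower across the genome. These were 76786805 (−48.2 points), 76786829 (−45.2), 76786834 (−32.9), base +10 (−30.3), 76786840 (−21.7), 76786813 (−21.7) and base +23 (−17.2). Base +10 was edited in 2 of 21 reads (9.52%) and 1 of 12 (8.33%) in shZfr, against 8 of 23 (34.8%) and 14 of 32 (43.8%) in shControl1, while shControl2 had 17.86% and 13.04% and shAdar1 had 13.6% and 17.6%. Between the controls 0 of 10 sites were called by edgeR or Fisher's exact test, with 3.33% of sites lower across the genome, though 3 of the 10 had an unadjusted p under 0.05. Leaving out 1 replicate, which leaves 1 sample in an arm, assumed to vary like the rest, ended nearly all calls at 10 reads across the genome. These fits called 0 sites in shAdar1 against shControl1, where 709 were called with both replicates. They called 0 to 2 in shZfr against shControl2, where 198 were, and 0 to 17 in shZfr against shControl1, where 809 were, so the loss of the locus calls in these fits says nothing about the locus. The differences stayed negative at every called site, from −50.8 to −47.4 points at 76786829 in shAdar1 against shControl1 and from −47.9 to −44.0 points at 76786805 in shZfr against shControl2. They varied most at 76786834 in shAdar1 against shControl1, from −37.1 points to −14.8 points without shAdar1 replicate 1.

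Base −1, where the new splice site forms, had few reads. It was edited in 1 of 10 and 1 of 11 reads in shAdar1, 0 of 10 and 0 of 2 in shAdar2, 0 of 18 and 0 of 13 in shZfr, 0 of 12 and 4 of 21 in shControl2, and 0 of 9 and 4 of 16 in shControl1. One control sample of each hairpin had no edited read, so the zeros of shZfr are not set apart from the controls. Pooled, 0 of 31 reads in shZfr allow a level of up to 11.2% (exact 95% interval) and 0 of 12 in shAdar2 up to 26.5%, and differences at this base were not detectable at this depth.

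Summed over the edited stretches (the insert, base −1 and the intron window), 7.28% and 6.58% of reads at sites were edited in shAdar1, 6.18% and 4.76% in shAdar2 and 4.04% and 4.50% in shZfr, against 7.37% and 9.39% in shControl2 and 14.0% and 13.7% in shControl1. The shAdar2 values rest on 22 of 356 reads and on 1 of 21 reads. All 3 hairpin groups lay below both control groups without overlap, and shControl2 lay below shControl1. Without technical library 2, replicate 1 of shAdar2 was at 7.66% (16 of 209 reads), so that shAdar2 overlapped with shControl2 and lay below shControl1 by 7.67 points on average. The differences were −6.94 percentage points for shAdar1 and −8.40 for shAdar2 against shControl1, −4.11 for shZfr against shControl2 and −5.49 for shControl2 against shControl1. The difference between the control hairpins was larger than that of shAdar1 against shControl2, which was −1.45. Each had an exact two-sided permutation p of 0.33, the smallest 2 samples against 2 can give. The technical libraries of shAdar2 replicate 1 had 8.24%, 4.08% and 5.13%. Over all 61 sites, most of them unedited, the levels were 2.20% and 1.81% in shAdar1, 2.21% and 1.02% in shAdar2 and 1.72% and 1.84% in shZfr, against 2.23% and 3.04% in shControl2 and 3.98% and 4.02% in shControl1. The first shAdar2 value was 3.21% without technical library 2.

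Reads in the intron and insert can also be counted whether edited or not, a measure chosen after the coverage had been seen. In shZfr the intron window held 316 and 371 reads, against 372 and 355 in shControl2, while the start-codon exon held 507 and 467, against 937 and 790, and the downstream exon 303 and 289, against 537 and 501. Per site, intron reads were 0.782 and 0.963 of those in the downstream exon in shZfr, against 0.520 and 0.531 in shControl2 and 0.533 and 0.406 in shControl1. The insert stood at 1.02 and 0.859 of the downstream exon in shZfr, against 0.745 and 0.768 in shControl2 and 0.545 and 0.773 in shControl1. Both shZfr samples were above all 4 control samples in both ratios, and the differences from shControl2 were 0.347 for the intron and 0.185 for the insert (exact two-sided permutation p = 0.33, the smallest possible). In shAdar2 replicate 1 the intron ratio was 0.458, and in replicate 2 it could not be read, with 1 read in the intron window and 91 in the start-codon exon. Over the start-codon exon, the intron stood at 0.405 and 0.516 in shZfr and at 0.393 in shAdar2 replicate 1. The controls had 0.258 and 0.292 (shControl2) and 0.282 and 0.235 (shControl1). Without technical library 2 the shAdar2 value was 0.553, above both shZfr samples. Whether shAdar2 stood with the controls or with shZfr thus depended on the exon used. The ratios in shAdar1 were 0.502 and 0.411 for the intron and 0.580 and 0.439 for the insert.

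**Figure D5:**
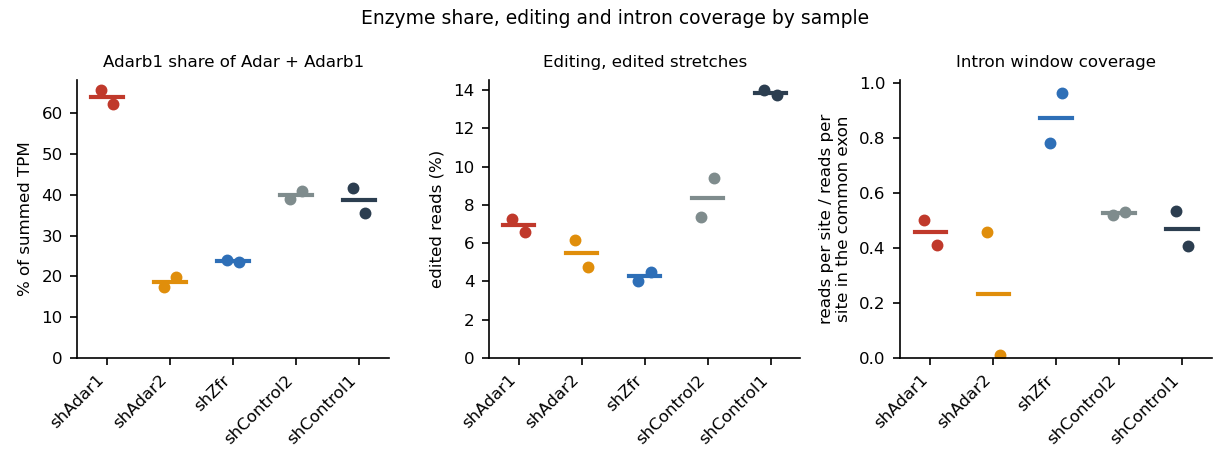
By sample, with a bar for the group mean, the share of Adarb1 in the TPM of Adar plus Adarb1, the editing level over the edited stretches (percent of reads), and reads per site in the intron window over reads per site in the downstream (common) exon. Editing is at 13.7% to 14.0% in shControl1, 7.37% to 9.39% in shControl2 and at most 7.28% in the other samples, and the coverage ratio is highest in shZfr (0.782 and 0.963).

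The editing level of all 61 sites was set beside the level of each enzyme across samples. None of the 3 relations passed a test, and 6 to 10 samples are too few to show that the level does not follow a member. The 4 samples low in Adarb1 form a cluster of their own, so the relation with Adarb1 was computed in the 6 samples of shAdar1, shControl2 and shControl1, where Pearson's r was 0.57 and Spearman's rho 0.54 (exact permutation p = 0.228 and 0.297, adjusted over 3 relations 0.683 and 0.892). Without the 2 samples farthest from the median r was 0.63. For Adar, over the 8 samples outside shAdar1, rho was 0.05 (exact permutation p = 0.935) and r was −0.000108 (exact permutation p = 0.996), and r was −0.40 without the 2 farthest samples. For Adarb2 over all 10 samples r was −0.25 and rho −0.03 (permutation p = 0.477 and 0.937, adjusted 0.715 and 0.937), and r was −0.47 without the 2 farthest.

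Proteins known to bind, move or regulate ADARs were measured next to the enzymes, and 21 of the 22 listed genes were tested. In shAdar1 against shControl1 4 rose and 1 fell, where 9.33% of all genes rose and 6.9% fell (median log2 fold change of the list 0.14, of all genes 0.02). In shAdar2 against shControl1 4 rose and 9 fell, where 23.2% of all genes rose and 23.2% fell (−0.20, against 0.04). In shZfr against shControl2 7 rose and 4 fell, where 16.7% rose and 14.1% fell (0.17, against 0.05). Zfr, the target of this hairpin, is itself in the list and among the falls in shZfr, so that fall was set by the design. Against the other control 8 rose and 3 fell in shAdar1, 8 rose and 12 fell in shAdar2 and 8 rose and 5 fell in shZfr. Those comparisons called 33.2%, 59.5% and 46.2% of all genes in either direction. In shAdar1 the importin genes Kpna1 and Kpna3 rose by 0.73 ± 0.11 and 0.65 ± 0.13 (edgeR adjusted p = 0.00378 and 0.00896), and Fxr1, an RNA-binding relative of the fragile X protein, fell by 0.44 ± 0.11 (edgeR adjusted p = 0.0227). In shAdar2 Strbp, which encodes a spermatid RNA-binding protein of the same DZF family as Zfr, averaged 267.4 ± 34.9 CPM, against 809.1 ± 48.5 CPM in shControl1 (log2 fold change −1.60 ± 0.13). Tnpo1, the transportin that carries ADAR1 into the nucleus, changed by −1.02 ± 0.09, and Elavl1, whose protein HuR binds AU-rich RNA, by −0.89 ± 0.11 (edgeR adjusted p = 2.9e-05, 6.4e-05 and 0.000261 for the 3 genes). In shZfr the targeted gene Zfr itself averaged 172.6 ± 0.118 CPM, against 458.8 ± 52.6 CPM in shControl2 (−1.41 ± 0.11, edgeR adjusted p = 6.4e-05). Zfr was low in shAdar2 too, at 188.2 ± 12.6 CPM, against 458.8 ± 52.6 CPM in shControl2 (−1.29 ± 0.11, edgeR adjusted p = 2.2e-05) and 278.8 ± 15.6 CPM in shControl1 (−0.57 ± 0.11, edgeR adjusted p = 0.00292). Both groups with low Adarb1 thus had low Zfr, and the difference of shAdar2 from shZfr did not pass (0.12 ± 0.11, edgeR adjusted p = 0.360). In shAdar1, where Adarb1 passed against neither control, Zfr averaged 306.8 ± 23.0 CPM. It was lower than in shControl2 (−0.58 ± 0.11, edgeR adjusted p = 0.00415) and did not pass against shControl1 (0.14 ± 0.11, edgeR adjusted p = 0.437). A link between the levels of Zfr and Adarb1 was not tested. In shZfr Fxr2 and Fxr1 rose by 0.77 ± 0.11 and 0.73 ± 0.11 (edgeR adjusted p = 0.000814 and 0.000975). Zfr differed between the controls too, higher in shControl2 than in shControl1 by 0.72 ± 0.11 (edgeR adjusted p = 0.00089).

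The sensors and effectors of unedited double-stranded RNA were higher in shAdar2. Of 10 tested, 8 rose and 0 fell in shAdar2 against shControl1, where 23.2% of all genes rose, and the list's median log2 fold change was 3.45. Against shControl2 6 rose and 0 fell, where 32.2% of all genes rose, with a median of 3.66. Ifih1, the sensor MDA5 of long duplexes, averaged 13.8 ± 9.62 CPM in shAdar2, against 0.883 ± 0.110 CPM in shControl1 (3.94 ± 0.49, edgeR adjusted p = 0.000265). Ddx58, the sensor RIG-I, averaged 26.9 ± 19.6 CPM, against 2.83 ± 0.365 CPM (3.23 ± 0.46, edgeR adjusted p = 0.000521). Oas1b, a synthetase of the oligoadenylate system, averaged 3.08 ± 2.35 CPM, against 0.0738 ± 0.0588 CPM (edgeR adjusted p = 0.0032), with as few as 1 count in a control sample.

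Interferon-stimulated genes, the class to which the long form of ADAR1 itself belongs, were listed for comparison with Adar. In shAdar2 against shControl1 14 of 15 tested rose and 0 fell, where 23.2% of all genes rose. The list's median on the log2 scale was 5.12, and Adar did not pass. Against shControl2 13 rose and 0 fell, where 32.2% of all genes rose, with a median of 4.09, and there Adar rose as well (0.62). Oasl2 averaged 67.2 ± 57.0 CPM in shAdar2, against 0.167 ± 0.145 CPM in shControl1 (edgeR adjusted p = 7.1e-05). Rsad2 averaged 34.3 ± 26.4 CPM, against 0.507 ± 0.261 CPM (edgeR adjusted p = 0.00022). Usp18 averaged 10.7 ± 8.85 CPM, against 0.0867 ± 0.0140 CPM (edgeR adjusted p = 0.00023). The shControl1 means of Oasl2 and Usp18 rest on few counts, as that of Oas1b did. In each shControl1 sample 4 of the 16 listed genes exceeded 1 CPM. The sum of the list was 234, 82.7 and 227 CPM in technical libraries 1, 2 and 3 and 527 CPM in replicate 2, so library 2 was again the low one, while Adar was 203.7 to 218.8 CPM in all 3. In the sums of samples, without TMM scaling, the list reached 50.7 to 54.1 CPM in shControl1 and 75.2 to 76.8 CPM in shControl2. The scales differ, but library 2 stood closer to the controls than libraries 1 and 3 did. The counts, medians and fold changes of this list and of the sensors include library 2. In shAdar1 against shControl1 and in shZfr against shControl2 0 of the 15 genes were called by edgeR.

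Among 20 transcripts with known recoding sites, the classical substrates of the enzymes, 3 rose and 3 fell in shAdar1 against shControl1, where 9.33% of all genes rose and 6.9% fell. In shAdar2 against shControl1 4 rose and 6 fell, near the 23.2% and 23.2% of all genes. In shZfr against shControl2 7 rose and 3 fell, where 16.7% of all genes rose and 14.1% fell. Against the other control 1 rose and 6 fell in shAdar1, 3 rose and 6 fell in shAdar2 and 9 rose and 1 fell in shZfr. Those comparisons called 33.2%, 59.5% and 46.2% of all genes in either direction, so the balance in the list depended on the control. The genes named next were tested against the baseline of their group. Htr2c, the serotonin 2C receptor, averaged 10.5 ± 0.0300 CPM in shAdar1 and 14.8 ± 5.51 CPM in shAdar2, against 43.4 ± 3.15 CPM in shControl1 (−2.05 ± 0.23 and −1.53 ± 0.22, edgeR adjusted p = 0.000977 and 0.000565). In shZfr it averaged 46.4 ± 3.09 CPM, against 12.2 ± 1.47 CPM in shControl2 (1.93 ± 0.23, edgeR adjusted p = 0.000354). The level in shZfr was thus close to that of shControl1, and the control hairpins again stood apart. Cacna1d, a calcium channel, rose in shAdar1 (0.43 ± 0.11) and in shAdar2 (0.69 ± 0.11), and Tmem63b, a membrane channel, rose in shAdar2 (0.82 ± 0.12). Copa, a coat protein of transport vesicles, fell in shAdar1 by 0.42 ± 0.10. In shZfr Gabra3, a GABA receptor subunit, fell by 1.25 ± 0.18, and Gria3, a glutamate receptor subunit, rose by 0.75 ± 0.13. Of the deaminase relatives, 3 of 5 genes passed the filter, the tRNA deaminases Adat1, Adat2 and Adat3, and 0 of them were called by edgeR in these 3 comparisons.

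The genes whose pattern over the 10 samples was most like that of a member, by Pearson's r of log2 CPM among 11110 genes, were Kdm2a (0.948), Myadm, Samd4, Map3k3 and Zfp365 (0.910) for Adar. For Adarb1 they were Calm2 (0.990), Wdr48, Pabpc4, Rasgrf2 and Tomm20 (0.979). For Adarb2 they were Gpr137c (0.935), Sp9, Gm14204, Rarb and Slc8a3 (0.903). These values describe the same 10 samples, which share the differences between hairpins and libraries, and carry no test. The members were little like each other, with r of −0.39 between Adar and Adarb1, 0.49 between Adar and Adarb2 and −0.66 between Adarb1 and Adarb2.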

How the data were processed

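RNA was sequenced from 12 libraries of 10 samples, after ribosomal RNA had been removed from 250 ng per the labels' protocols. The authors deposited RSEM gene tables with expected counts and TPM, and per the file headers tables of editing sites with counts of unedited (A) and edited (G) reads and the level as a fraction. Per the submitters' processing notes, the build was mm9 and the tools were STAR 2.5.4b, RSEM 1.2.30, Trim Galore 0.4.5, DESeq2 1.20.0 and SAMtools 1.4, with no role or order stated. The selection of sites and the filtering of reads are not given in the sources used here; only sites the authors listed could be analysed. All levels were taken from these deposited values.

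Expected counts were rounded (those of the 3 members were whole in 12 of 12 libraries), filtered with filterByExpr to 14785 genes, and scaled by TMM. The test was the quasi-likelihood F test of edgeR 4.0.16 (R 4.3.3). The fit covered all 10 samples with group as the only term, with Benjamini-Hochberg adjustment over all genes and a threshold of 0.05. Site reads were tested with the same method in the 4 samples of a comparison, with a coefficient per library, over all sites of the genome that had 20 or more reads in every sample, 5 or more of them edited and 5 or more unedited over the comparison. Values of single samples were compared with exact two-sided permutation tests in scipy 1.17.1. Intervals are exact Clopper-Pearson intervals and reflect counting error alone, as there are no molecular identifiers. Pairing of the insert with the intron stretch was predicted with RNAduplex 2.7.2. Sequences come from the GENCODE M21 transcripts, matched by the spacing of the listed mm9 positions, and no coordinates were converted between builds.

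The replicates are called biological in the series' text. Nothing states that they came from separate dissections, and p-values measure the spread among these samples. Same-numbered deviations from the group means correlated at −0.12 to 0.28 between groups. That shows no strong pairing by replicate number and does not exclude pairing. The main fit treated the samples as unpaired.

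The members, the lists and the tests were chosen with earlier results of these data known. Named were the members, Zfr, up to 3 called genes with the lowest p per list and comparison, the 5 genes most like each member among those with a mean of at least 5 CPM, and sites that had 20 or more reads in every sample of a comparison, or the 6 with most reads where fewer than 3 qualified. Sites with at least 5 edited reads were named in addition, after their values had been seen. A result that the rule took from the list of sensors is not reported here.

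On 3 simulated sets per comparison with 200 changed genes, the gene test recovered 68.7% of 2-fold changes for shAdar1 against shControl1, 69.0% for shAdar2 against shControl1 and 63.7% for shZfr against shControl2, with 6.66%, 7.21% and 5.03% of its calls false. The site test recovered 70.0% of 8-fold changes in odds for shAdar1 against shControl1 and 68.7% for shZfr against shControl2. Of its calls, 2.74% and 2.64% were false. Simulated replicates of a group had the same level at each site and differed by counting error alone. The rates of the site test therefore do not cover other spread between replicates. Alternatives covered DESeq2 1.42.0, its size factors, no filter, the compared groups alone, a replicate block, each replicate left out, pooled controls, single technical libraries, other coverage minimums and Fisher's exact test on pooled reads.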

Additional observations from a re-analysis of the deposited data

How the results depend on the processing

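The falls of Adarb1 in shAdar2 and shZfr and the direction of Adar in shAdar1 held in all alternatives run. With both control hairpins pooled, Adar in shAdar1 was −1.50 and no longer called against either control, Adar in shAdar2 was 0.39, Adarb2 in shAdar2 0.39, and the direction turned for Adar (−0.14) and Adarb2 (0.21) in shZfr against shControl2 and for Adarb1 in shAdar1 against shControl2 (−0.020). The cause of these changes was not tested. For shAdar1, 5 genes in all were called with the controls pooled, against 2400 in the comparison with shControl1. Within this comparison the lost call was thus not particular to Adar, while for shAdar2 4811 genes were called with the controls pooled. The call of Adarb2 in shAdar2 against shControl1 was lost under the replicate block (0.69), DESeq2's size factors (0.68), the compared groups alone (0.71), in 3 of 4 fits with a replicate left out (edgeR adjusted p of 0.0736 to 0.388) and with technical library 2 alone (0.077), which turned the value against shControl2 (−0.47). In shAdar1 against shAdar2 the call of Adarb2 was lost in the compared groups alone (−0.85), with library 2 alone (−0.20) and without shAdar1 replicate 1 or shAdar2 replicate 1, ranging from −1.17 to −0.37 with a replicate left out. The block changed no other member's call. Adarb2 passed in shAdar1 against shControl2 under DESeq2 (−0.74), no filter (−0.66) and the compared groups alone (−0.70), as it did in the compared groups alone for shZfr against shControl1 (0.52) and shControl2 against shControl1 (0.57), the last also under DESeq2 (0.59). Adarb1 in shControl2 against shControl1 was −0.29 under DESeq2 or its size factors.

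With 1 replicate left out, Adarb2 ranged from −0.48 to 0.14 in shAdar1 and from 0.25 to 1.02 in shAdar2 against shControl1, and from −1.03 to −0.43 and −0.30 to 0.47 against shControl2. Adar ranged from −0.032 to 0.20 in shZfr against shControl2, −0.49 to −0.16 in shZfr against shControl1 and −0.58 to −0.25 in shControl2 against shControl1. Adarb1 ranged from −0.049 to 0.31 in shAdar1 against shControl2 and −0.37 to −0.26 in shControl2 against shControl1. The share of Adarb1 in shControl2 minus shControl1 ranged from −1.70 to 4.49 percentage points.

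Locus sites called in shAdar1 against shControl1 were 3 at a minimum of 5 or 10 reads, 1 by Fisher's exact test, and 0 to 1 with a replicate left out. At 10 reads Fisher's test gave 5, the replicate block 2, and leaving out a replicate 0 to 0. The last fits called 0 sites across the whole genome, against 709 with both replicates, and say nothing about the locus, where the differences of the 3 called sites stayed between −50.8 and −14.8 points. In shZfr against shControl2 they were 1 at 5 or 10 reads and at 10 reads 0 to 0 with a replicate left out, where 0 to 2 sites passed across the genome, against 198. In shZfr against shControl1 they were 7 at 5 or 10 reads, 0 to 2 with a replicate left out, and at 10 reads 5 under the block and 0 to 0 with a replicate left out, where 0 to 17 passed across the genome, against 809. Single sites turned with a replicate left out: base +23 in shAdar1 against shControl1 (−17.2 to 2.84 points) and against shControl2 (−1.11 to 14.4), 76786813 in shAdar1 against shControl1 (−14.0 to 1.06) and base +24 in shControl2 against shControl1 (−20.7 to 0.411).

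The level over all 61 sites differed by −2.001 points in shAdar1 and −2.39 in shAdar2 against shControl1, −0.854 in shZfr against shControl2, −2.22 in shZfr against shControl1 and −1.37 in shControl2 against shControl1. Over the 39 sites with reads in all libraries it was −1.13, −1.20, −0.358, −1.07 and −0.707 in that order. As a mean of the levels of sites with at least 10 reads it was −3.41, −3.88, −2.10, −4.87 and −2.78. The shAdar2 value of that measure rests on replicate 1 alone, because replicate 2 had no site with 10 reads. Without the deepest site shZfr against shControl1 was −2.32. The correlation with Adar turned to 0.13 over sites with reads in all libraries.

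Numbers of genes called ranged from 5 (pooled controls) to 2843 in shAdar1 against shControl1 (2400 as reported), 4047 to 7873 in shAdar2 against shControl1 (6856) and 1866 to 7909 in shZfr against shControl2 (4542). For shAdar1 and shControl1 alone, the block gave 1412 calls as numbered and 2685 with crossed numbers, against 1693 without a block. Depth limits the shAdar2 sites most.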
